A study of Mus musculus with 12 samples.

Results

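The Id and Msx genes are transcriptional targets of bone morphogenetic protein (BMP) signalling. This set of 9 genes held Id1, Id2, Id3, Id4, Msx1 and Msx2, the inhibitory Smads Smad6 and Smad7, and the ligand Bmp4. The genes were chosen by name, 9 of 18195 genes on the array, and 16 of its 45101 probe sets name 1 of them alone. Where several probe sets name a gene, the one with the greatest average over 12 arrays stands for it. All 9 genes passed the filter on low values, which 13436 genes passed.

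BMP ligands bind pairs of type I and type II serine/threonine kinase receptors, which phosphorylate Smad1, Smad5 and Smad9; these join Smad4 and act on target genes in the nucleus. Id proteins are helix-loop-helix proteins without a DNA-binding region and hold back bHLH transcription factors, Msx proteins are homeodomain factors, and Smad6 and Smad7 are targets that inhibit the signal in return. In the mouse embryo, BMP4 from the extra-embryonic ectoderm is needed for epiblast cells to become primordial germ cells (PGCs), and BMP4 is among the factors that turn epiblast-like cells into PGC-like cells (PGCLCs) in culture.

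Expression was measured on 12 Affymetrix mouse arrays, 2 biological replicates in each of 6 groups. PGCLCs were C57BL/6 and carried the reporters Blimp1-mVenus and stella-ECFP (BVSC); they were taken as female cells on day 3 (d3), as female and as male cells on day 6 (d6 female, d6 male), and as female day 3 cells kept for 6 further days in an aggregate with somatic cells of female E12.5 gonads (d3ag6). PGCs were of mixed C57BL/6 and BDF1 background, carried stella-EGFP, and came from female E12.5 embryos or from E9.5 embryos whose sex was not given. All cells were sorted by reporter fluorescence, and PCR, with 12 cycles in its first round, amplified cDNA of 5 ng of RNA (500 cells). The stella and Blimp1 reporters mark germ cells, so the profiles are of reporter-positive cells. The d3ag6 cells were older than the d6 female cells as well as aggregated, and these cannot be told apart. PGCLCs and PGCs also differed in strain and reporters, which cannot be told apart from their origin in any comparison of PGCLCs with PGCs.

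Values are log2 signals after quantile normalization between arrays, and a difference of 1 is a 2-fold change. Changes were tested with limma over all 12 arrays, and a gene was called at a Benjamini-Hochberg adjusted p under 0.05 over all genes tested. Because a probe set's level depends on its probes, levels were compared between groups for one gene, not between genes. Replicates correlated at 0.969 to 0.99 over genes tested. The 8 arrays of E12.5, d3ag6, d3 and d6 female carry the code EA1013 in their descriptions, whereas E9.5 and d6 male have 1 array each of the codes EA0831 and EA0842. Code and group therefore cannot be told apart in comparisons of E9.5 or d6 male with the other groups, but can be between E9.5 and d6 male.

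Of the 10 PGC markers, 9 were on the array and 8 or 9 of these lay above 4.81, the median of all values, on every array. Markers of other cells moved with some groups. The mean level of 11 gonadal somatic markers was 5.56 to 5.74 in d3ag6 and 5.16 to 5.44 in E12.5, against 4.81 to 5.65 in E9.5, 4.35 to 4.81 in d3, 4.15 to 4.51 in d6 male and 4.35 to 4.36 in d6 female cells. The mean of 7 blood and macrophage markers was 6.61 to 6.63 in d3ag6 and 6.68 to 7.4 in E9.5, against 4.9 to 5.76 in the other groups, and the embryonic globin Hba-x averaged 12.23 in E9.5. The mean of 9 mesenchyme markers was 6.82 to 7.72 in E9.5 and 5.19 to 6.26 elsewhere, and that of 7 endothelial markers was 7.77 to 7.81 in d6 male cells and 5.07 to 7.31 elsewhere. The mean of 5 extra-embryonic and visceral endoderm markers was 5.65 to 7 in d3ag6 and 5.39 to 6.23 elsewhere, and the d3ag6 arrays stood apart from each other in Ttr (8.48 ± 2.3, SD, n = 2) and Apoa1 (6.52 ± 2.57, SD, n = 2). No marker stood at exactly 0 on any array.

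RefSeq promoter windows (GRCm38.p6) of 7 of the 9 genes were searched, and 4 are shown. Those of Id1 and Smad7 were not searched, so the motif counts leave these genes out. Id4 and Msx1 were called lower in d6 female than in d3 cells, whereas Id3 and Msx2 were not called there and were lowest in d3ag6. The lowest mean was in d3ag6 for Id1, Id2, Msx1 and Bmp4 too. The windows are the 250 bases before the start site of Id4 (chr13:48260866-48261115, plus strand), Msx1 (chr5:37824586-37824835, minus strand), Id3 (chr4:136143572-136143821, plus strand) and Msx2 (chr13:53472781-53473030, minus strand). Capitals mark GGCGCC and GGAGCC or its reverse complement GGCTCC, GC-rich motifs that BMP-responsive Smads are known to bind.
Id4: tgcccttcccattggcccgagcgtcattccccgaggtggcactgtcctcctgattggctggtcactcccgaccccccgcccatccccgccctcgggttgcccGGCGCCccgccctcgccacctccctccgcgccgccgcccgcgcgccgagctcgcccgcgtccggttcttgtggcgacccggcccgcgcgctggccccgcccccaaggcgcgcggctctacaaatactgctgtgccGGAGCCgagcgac
Msx1: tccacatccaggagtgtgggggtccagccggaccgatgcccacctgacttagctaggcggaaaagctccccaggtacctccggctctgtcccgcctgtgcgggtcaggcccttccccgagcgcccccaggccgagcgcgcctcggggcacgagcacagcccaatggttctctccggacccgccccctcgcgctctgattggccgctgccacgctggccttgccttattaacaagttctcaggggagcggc
Id3: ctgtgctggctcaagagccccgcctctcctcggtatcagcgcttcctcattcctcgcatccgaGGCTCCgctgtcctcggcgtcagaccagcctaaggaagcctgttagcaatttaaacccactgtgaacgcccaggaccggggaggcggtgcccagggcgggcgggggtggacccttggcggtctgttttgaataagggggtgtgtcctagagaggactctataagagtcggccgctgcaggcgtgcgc
Msx2: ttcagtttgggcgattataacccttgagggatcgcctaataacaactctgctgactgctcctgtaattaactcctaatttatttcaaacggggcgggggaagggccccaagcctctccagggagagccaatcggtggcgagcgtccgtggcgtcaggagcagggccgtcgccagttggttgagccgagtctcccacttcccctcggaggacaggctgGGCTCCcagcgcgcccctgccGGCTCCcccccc

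Read on both strands, GGCGCC was present in 2 of the 7 windows, Id4 with its first base at -148 from the start site and Id2 at -231, and in 9.59% of all 32851 windows of this length. GGAGCC was present in 6 of the 7 windows, all but that of Msx1, and in 26% of all windows. The Smad-binding motif CAGAC was present in 1 of the 7, Id3 at -167 and -68, and in 42.2% of all windows. No marked motif overlapped another. Msx1, whose fall was the largest of the set between d3 and d6 female cells, had none of the 3 in its window, which says only that these letters are not in these 250 bases.

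Id1 was lower in day 6 PGCLCs than in d3 cells and lower still in aggregates. Its log2 signal was 10.89 and 10.95 in d3, 8.78 and 9.04 in d6 female, 8.17 and 7.78 in d6 male, and 6.61 and 7.43 in d3ag6 cells. In the PGCs it was 10.86 and 10.4 at E9.5 and 11.41 and 11.67 at E12.5. The arrays of no 2 neighbours in this order overlapped, with E12.5 highest, then d3, E9.5, d6 female, d6 male and d3ag6. From d3 to d6 female cells Id1 fell by 2.01 (SE 0.29, adjusted p = 0.00731), and the adjusted p was 0.0669 when array 1 of d6 female was left out. Relative to d6 female cells, d3ag6 cells differed by a further -1.89 (adjusted p = 0.00753), and the difference from E12.5 PGCs was -4.52 (SE 0.29, adjusted p = 9.54e-05), a 23.0-fold difference that ranked 12 by size among all genes tested. Since RNA came from sorted cells in bulk, fewer expressing cells and less RNA per cell cannot be told apart.

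Id4 was lower in d6 female than in d3 cells, with d3ag6 cells between them. The d3ag6 cells, which started from d3 cells, differed from d3 by -0.94 (adjusted p = 0.0579). Its signal was 7.58 and 7.62 in d3, 5.69 and 4.96 in d6 female, 4.85 and 5.39 in d6 male and 6.72 and 6.59 in d3ag6 cells. At E9.5 it was 7.81 and 8.18, and at E12.5 9.52 and 9.4. The E12.5 arrays were above all others, and the d6 female and d6 male arrays overlapped at the bottom. Id4 fell by 2.27 from d3 to d6 female cells (SE 0.27, adjusted p = 0.00335) and was 1.33 higher in d3ag6 than in d6 female cells (SE 0.27, adjusted p = 0.0242). It was the 1 gene of the 9 called higher in this comparison, and leaving out array 2 of d6 female (0.97, adjusted p = 0.109), array 1 of d3ag6 (1.26, adjusted p = 0.116) or array 2 of d3ag6 (1.4, adjusted p = 0.117) ended the call. Against E12.5 PGCs, d3ag6 cells differed by -2.8 (adjusted p = 0.000613).

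Other Id4 probe sets gave unequal pictures. Neither was called for d6 female minus d3, with -1.75 (adjusted p = 0.151) for 1450928_at and -0.16 (adjusted p = 0.786) for 1423260_at. With only the arrays compared in the fit, the probe set used missed that call as well (adjusted p = 0.0516). Probe set 1450928_at had the direction of the one used in each of the 6 comparisons in which that one was called, with -2.73 for d3ag6 minus E12.5 (adjusted p = 0.0194) and 1.26 for d3ag6 minus d6 female (adjusted p = 0.228). Probe set 1423260_at lay between 4.5 and 5.58 on every array, close to the median of all values, and gave -0.0833 for d3ag6 minus d6 female (adjusted p = 0.856) and 0.41 for d6 female minus E9.5 (adjusted p = 0.231).

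Id3 was nearly level in 5 groups and lower in d3ag6. Over the 10 arrays outside d3ag6 its signal lay between 11.45 and 11.84, and in d3ag6 it was 10.56 and 10.52. No d3ag6 array overlapped any other, while d6 female, d3, d6 male and E9.5 overlapped as neighbours. In d3ag6 cells Id3 differed by -0.99 from d3 (SE 0.14, adjusted p = 0.0025), by -1.08 from d6 female (adjusted p = 0.00343) and by -1.27 from E12.5 cells (adjusted p = 0.000924). These 3 calls held with each of the 4 arrays compared left out. Between d3 and d6 female cells the difference of 0.1 had a 95% interval of -0.21 to 0.41.

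Id2 varied between the arrays of a group, most in d6 male and E9.5. Its signal was 7.39 and 7.46 in d3, 6.61 and 6.71 in d6 female, 4.45 and 7.02 in d6 male, and 6 and 5.31 in d3ag6 cells, against 6.1 and 7.39 at E9.5 and 8.66 and 8.24 at E12.5. Only the E12.5 arrays stood clear of their neighbour in the order, and the 2 d6 male arrays lay farther apart than any other pair of this gene. Id2 was lower in d3ag6 than in E12.5, with a difference of -2.79 (SE 0.72, adjusted p = 0.0444). Leaving out any 1 of the 4 arrays ended the call (adjusted p = 0.108 to 0.232), as did the values as deposited (-2.67, adjusted p = 0.0537).

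**Figure D1:**
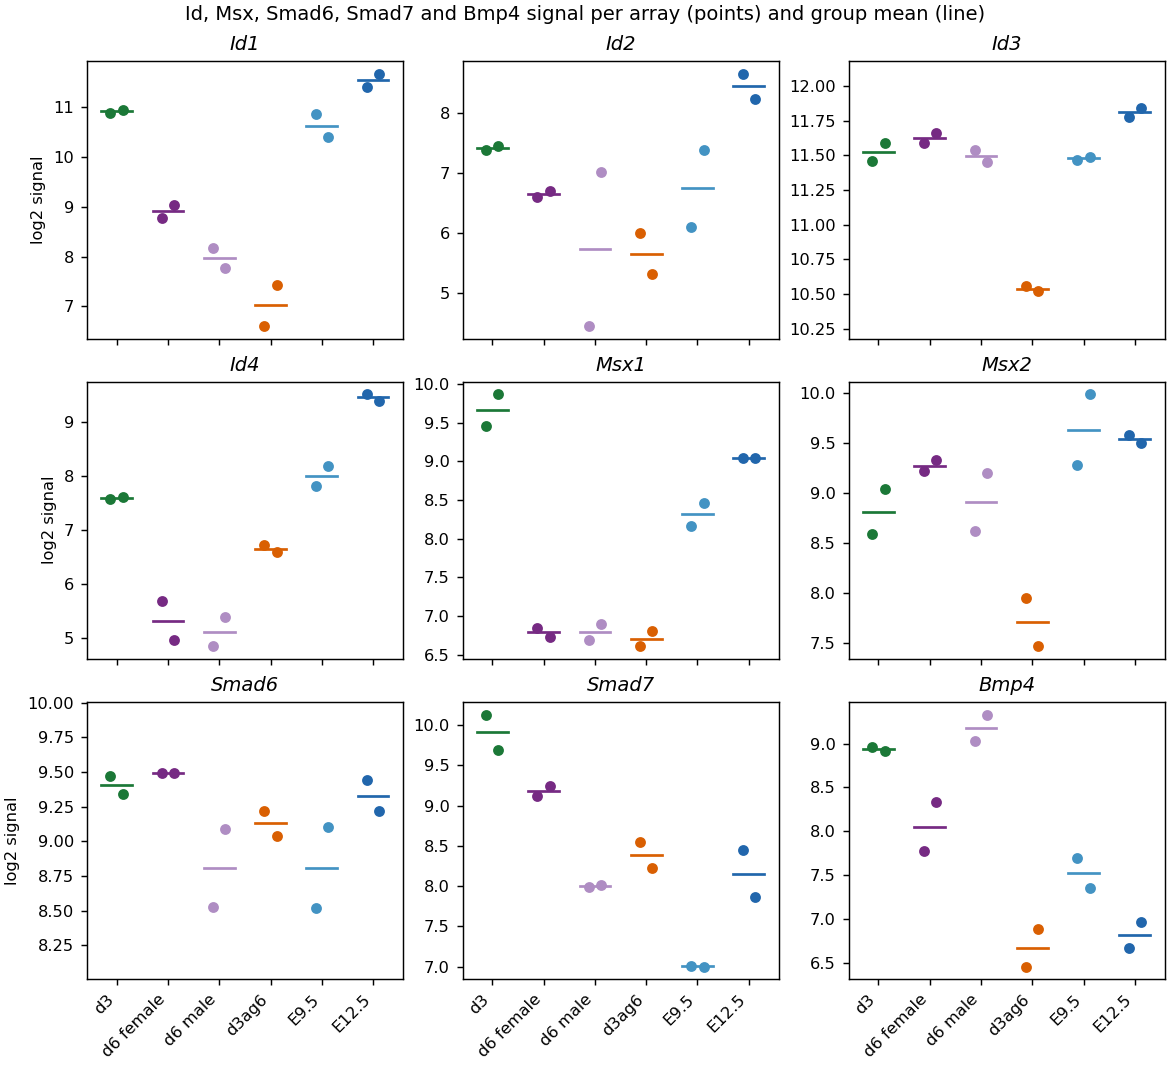
Log2 signal of each of the 9 genes on every array, with a panel per gene, groups on the x axis, points for the 2 arrays of a group and a line for their mean; y axes are cut to each gene's range. Id1 was lowest in d3ag6 and highest in E12.5, Id3 and Msx2 were lowest in d3ag6, and Msx1 was at 6.61 to 6.9 in d6 female, d6 male and d3ag6 cells.

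Msx1 separated the 6 groups into a higher and a lower set. Its signal was 9.46 and 9.87 in d3 cells, 8.17 and 8.46 in E9.5 and 9.05 on both E12.5 arrays. In d6 female cells it was 6.85 and 6.73, in d6 male cells 6.69 and 6.9, and in d3ag6 cells 6.61 and 6.81. The 3 lower groups overlapped one another and none of the others. Msx1 fell by 2.87 from d3 to d6 female cells (SE 0.19, adjusted p = 0.000521), a 7.34-fold difference with rank 46 by size of all genes tested. The d3ag6 and d6 female cells differed by -0.081 (95% interval -0.51 to 0.35, adjusted p = 0.848), a sign that turned with the values as deposited. Against E12.5 PGCs, d3ag6 cells differed by -2.34 (SE 0.19, adjusted p = 0.000327), and the other Msx1 probe set, 1417127_at, gave -1.5 there.

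Msx2, like Id3, was lowest in d3ag6. Its signal was 8.59 and 9.04 in d3, 9.22 and 9.33 in d6 female, 8.62 and 9.2 in d6 male and 7.95 and 7.47 in d3ag6 cells, with 9.28 and 9.99 at E9.5 and 9.58 and 9.5 at E12.5. Both d3ag6 arrays were below all others, and the remaining groups spanned 8.59 to 9.99. In d3ag6 cells Msx2 differed by -1.83 from E12.5 (SE 0.3, adjusted p = 0.0068), by -1.56 from d6 female (adjusted p = 0.0187) and by -1.1 from d3 cells (adjusted p = 0.0468).

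The Msx2 calls depended on single arrays. Against E12.5 the call ended with array 2 of d3ag6 (-1.59, adjusted p = 0.0597) or array 1 of E12.5 (-1.79, adjusted p = 0.0581) left out. Against d6 female cells it ended with array 1 (-1.62, adjusted p = 0.105) or array 2 (-1.51, adjusted p = 0.0878) of d6 female or array 2 of d3ag6 (-1.33, adjusted p = 0.141) left out, and against d3 with any 1 of the 4 arrays left out (adjusted p = 0.0667 to 0.243). None of the 3 passed in the mean of both probe sets, whose second, 1438351_at, lay between 1.13 and 3.24, below the median of all values on every array.

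Smad6, an inhibitory Smad that competes for activated BMP Smads, was level. Its signal ranged from 8.52 to 9.49 over the 12 arrays, and limma called it in none of the 8 comparisons, with an unadjusted p under 0.05 in 2. At E9.5 it was 8.52 and 9.1 and in d6 male cells 8.53 and 9.09, so that arrays of the same code were nearly equal. Its largest differences, both 0.68, were d6 female minus d6 male (95% interval 0.14 to 1.23, adjusted p = 0.188) and d6 female minus E9.5 (0.13 to 1.22, adjusted p = 0.0993).

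Smad7, an inhibitory Smad that acts on BMP and TGF-beta receptors, had another order than the Id genes. Its signal was 10.13 and 9.69 in d3, 9.12 and 9.24 in d6 female, 7.99 and 8.02 in d6 male and 8.55 and 8.22 in d3ag6 cells, with 7.01 and 7 at E9.5 and 8.45 and 7.86 at E12.5. It was highest in d3 and lowest in E9.5, and E12.5 overlapped d3ag6 and d6 male. Smad7 differed by -1.52 in d3ag6 minus d3 (SE 0.23, adjusted p = 0.00407) and was higher in d6 female cells than at E9.5 by 2.17 (SE 0.23, adjusted p = 0.000729), both calls that held with each of the 4 arrays left out. Against d6 female cells, d3ag6 differed by -0.8 (adjusted p = 0.0797). A second probe set, 1423389_at, gave the same order of these groups, from a mean of 10.1 in d3 to 6.64 at E9.5.

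Bmp4, the ligand itself, was lower in aggregates than in d3 cells and highest in d6 male cells. Its signal was 8.96 and 8.91 in d3, 7.78 and 8.33 in d6 female, 9.03 and 9.33 in d6 male and 6.46 and 6.89 in d3ag6 cells, with 7.7 and 7.36 at E9.5 and 6.67 and 6.97 at E12.5. Only d3ag6 and E12.5, the lowest groups, overlapped as neighbours. In d3ag6 cells Bmp4 differed by -2.26 from d3 (SE 0.24, adjusted p = 0.000886) and by -1.39 from d6 female cells (adjusted p = 0.0145). The latter call ended with array 2 of d6 female (-1.11, adjusted p = 0.0785) or array 1 of d3ag6 (-1.17, adjusted p = 0.0895) left out. Against E12.5 the difference was -0.15, with a 95% interval of -0.7 to 0.41.

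In further culture of female PGCLCs, from d3 to d6, Id1, Id4 and Msx1 were called lower, Id4 only with the probe set used. These were 3 of the 9 genes, where 2.34% of all genes tested were called lower and 4.06% were called in either direction. The median change of the 9 was -0.76, and that of all genes tested -0.0112. Among the genes that did not pass, Bmp4 was at -0.88 (adjusted p = 0.0964), Smad7 at -0.73 (adjusted p = 0.142) and Id2 at -0.76 (adjusted p = 0.683). Msx2 differed by 0.46 and Smad6 by 0.0825, with intervals that included 0. The mean of the endothelial markers was 5.07 to 5.88 in d3 and 6.39 to 7.31 in d6 female cells. Of these 7 markers Tek alone was called, higher (1.91, adjusted p = 0.0174). Of 8 mesenchyme markers tested Col3a1 alone was called, higher (2.43, adjusted p = 0.0224). Of 9 gonadal somatic markers tested Amhr2 alone was called, lower (-1.53, adjusted p = 0.0301). The part of these markers in the result was not tested.

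In aggregates, female PGCLCs had lower Id1, Id3, Msx1, Msx2, Smad7 and Bmp4 than their d3 starting cells. These were 6 of 9 genes, all lower, where 4.84% of all genes tested were called lower and 10.6% in either direction, and their median was -1.52 against -0.00135 for all genes. Id4 differed by -0.94 (adjusted p = 0.0579) and Id2 by -1.77 (adjusted p = 0.169), and both were called in the fit on the 8 EA1013 arrays (adjusted p = 0.0449 and 0.00721). That fit called 8 of the 9 genes and 1810 of the 13436 genes tested, against 1430 in the fit on all 12 arrays. The d3ag6 cells also had higher gonadal somatic markers (2 of 9 tested called, both higher) and blood and macrophage markers (3 of 6, all higher). Of 8 mesenchyme markers tested only Col3a1 was called, higher (4.02, adjusted p = 0.0011), and 5 of 9 PGC markers were called (4 higher). The part of these markers in the result was not tested.

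Set against d6 female cells, d3ag6 cells had lower Id1, Id3, Msx2 and Bmp4 and higher Id4. These were 5 of 9 genes, where 6.39% of all genes tested were called, and the median was -1 against 0.00729 for all genes. The comparison shares the d3ag6 arrays with the previous one. Markers called higher were 3 of 9 gonadal somatic genes, among them Amhr2 (3.12, adjusted p = 0.00122), and 2 of 6 blood and macrophage genes, among them Lyz2 (4.04, adjusted p = 0.000599). So were 3 of 9 PGC markers. The part of these markers in the result was not tested.

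The widest gap was between d3ag6 cells and E12.5 PGCs, where all 4 Id genes and both Msx genes were lower in d3ag6, and Smad6, Smad7 and Bmp4 did not pass. These were 6 of 9 genes, all lower, where 3.07% of all genes tested were called lower and 9.03% in either direction, with a median of -1.83 against 0.00333 for all genes. The intervals of Smad6 (-0.75 to 0.34), Smad7 (-0.29 to 0.75) and Bmp4 included 0. Of the markers, 4 of 6 blood and macrophage genes were called (3 higher), 1 of 9 gonadal somatic genes was higher, and none of the 9 PGC markers was called. Of 8 mesenchyme markers tested only Col3a1 was called, higher (3.8, adjusted p = 0.00159), and of 7 endothelial markers only Emcn, also higher (1.61, adjusted p = 0.00476). The part of these markers in the result was not tested. Strain and reporters cannot be told apart from origin here.

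**Figure D2:**
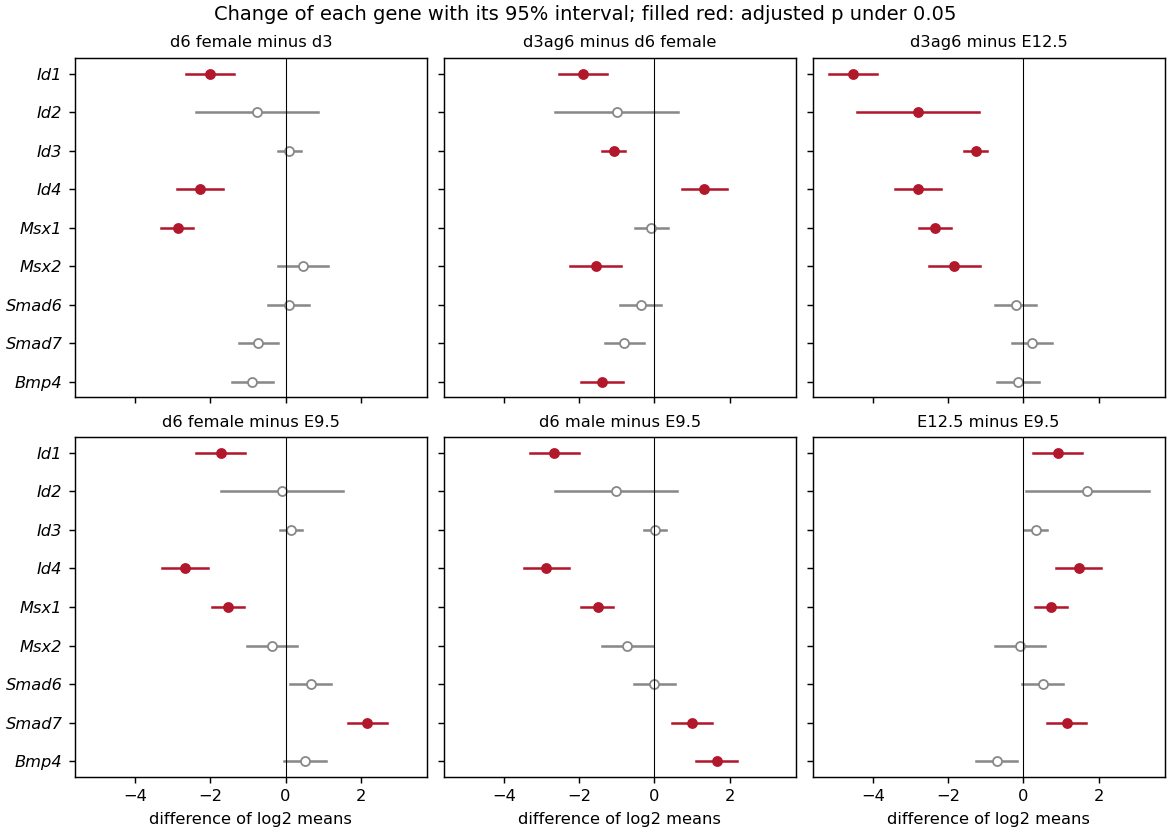
Difference of group means (x axis, log2) for each of the 9 genes in 6 comparisons, with 95% intervals from limma; filled red points had an adjusted p under 0.05 over all genes tested. In d3ag6 minus E12.5 the 6 Id and Msx genes lay between -4.52 and -1.27, and Smad6, Smad7 and Bmp4 lay between -0.2 and 0.23.

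Compared with E9.5 PGCs, d6 PGCLCs of either sex had lower Id1, Id4 and Msx1 and higher Smad7. In d6 female cells Id1 differed by -1.72 (adjusted p = 0.0053), Id4 by -2.67 (adjusted p = 0.000638) and Msx1 by -1.52 (adjusted p = 0.00147). These and Smad7 were 4 of 9 genes, where 13.9% of all genes tested were called, and the median of the 9 was -0.0867 against 0.065 for all genes. Array code and group cannot be told apart here. Of the markers, 5 of 8 mesenchyme genes, 2 of 9 gonadal somatic genes and both globins were called lower in d6 female cells. Called higher were 2 of 7 endothelial genes, Cd68 and Dazl. The part of these markers in the result was not tested.

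Male d6 cells were compared with E9.5 PGCs in the fit on all 12 arrays, which has no term for the code. The differences within each array code are given beside it. Id1 differed by -2.66 (SE 0.29, adjusted p = 0.000786), with -2.69 on the EA0831 and -2.62 on the EA0842 arrays, and Id4 differed by -2.87 (adjusted p = 0.000395), with -2.96 and -2.78. Msx1 differed by -1.51 (adjusted p = 0.0016), with -1.47 and -1.56. Bmp4 was higher in d6 male cells by 1.65 (adjusted p = 0.0036), with 1.33 and 1.97, and Smad7 by 1 (adjusted p = 0.0253), with 0.98 and 1.02. The Smad7 call ended with any 1 of the 4 arrays left out (adjusted p = 0.078 to 0.0981).

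These were 5 of 9 genes, where 10.6% of all genes tested were called. In a fit on the 4 arrays with the code as a block 5 were called as well (adjusted p = 0.0185 to 0.0465), and 887 of the 13436 genes tested. The E9.5 arrays held higher mesenchyme markers (5 of 8 tested called lower in d6 male cells), gonadal somatic markers (3 of 9) and globins. The d6 male arrays held higher endothelial markers (3 of 7 called higher) and 1 of 9 PGC markers. The part of these markers in the result was not tested.

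Between d6 female and d6 male cells, Smad7 alone passed, 1.17 higher in female cells (SE 0.23, adjusted p = 0.0479), which was 1 of 9 genes where 1.47% of all genes tested were called. The call ended with any 1 of the 4 arrays left out (adjusted p = 0.0728 to 0.215) and with the values as deposited (1, adjusted p = 0.0765). Bmp4 was at -1.13 (adjusted p = 0.0655), and at -1.3 (adjusted p = 0.0489) with the values as deposited. Id1 was at 0.94 (adjusted p = 0.147), with no overlap of the arrays. Sex and array code cannot be told apart here.

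In the embryo, Id1, Id4, Msx1 and Smad7 were higher at E12.5 than at E9.5. Id4 was higher by 1.47 (SE 0.27, adjusted p = 0.00524), Smad7 by 1.15 (adjusted p = 0.00787), Id1 by 0.91 (adjusted p = 0.0477) and Msx1 by 0.74 (adjusted p = 0.0219). These were 4 of 9 genes, all higher, where 12.9% of all genes tested were called higher and 23.6% in either direction; of these calls 54.5% were higher, and 44.4% with the values as deposited. The median of the 9 was 0.74 against 0.0799 for all genes. Bmp4 was at -0.71 (95% interval -1.27 to -0.16, adjusted p = 0.0648). With the values as deposited it was called lower (-0.84, adjusted p = 0.046), and Id1 (0.87, adjusted p = 0.0586) and Msx1 (0.59, adjusted p = 0.054) were not called.

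The Id4 call in the embryo held with each array left out, and that of Smad7 ended with array 1 of E12.5 left out (0.85, adjusted p = 0.0662). Leaving out any 1 of the 4 arrays ended the Id1 call (adjusted p = 0.0542 to 0.215). For Msx1 this was so of array 1 (0.74, adjusted p = 0.107) and array 2 (0.74, adjusted p = 0.102) of E12.5 and array 1 of E9.5 (0.59, adjusted p = 0.109). Array code and group cannot be told apart. Lower at E12.5 were 6 of 8 mesenchyme markers and the globins Hba-x (-6.18, adjusted p = 4.56e-05) and Hbb-bh1 (-4.2, adjusted p = 0.000779). So was 1 of 7 endothelial markers, Emcn (-1.55, adjusted p = 0.00251). The part of these markers in the result was not tested.

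The change from d6 female to d3ag6 cells was then tested against the change from E9.5 to E12.5 PGCs. The d3ag6 cells started from d3 cells, so the first change is a difference between groups and not a course in time. Id1 was lower in d3ag6 than in d6 female cells and higher at E12.5 than at E9.5. The 2 changes differed for Id1 by -2.8 (SE 0.4, adjusted p = 0.00646), for Id3 by -1.41 (SE 0.19, adjusted p = 0.00502) and for Smad7 by -1.94 (SE 0.33, adjusted p = 0.0119). These were 3 of 9 genes, all lower, where 2.47% of all genes tested were called lower and 5.75% in either direction; of these calls 57.1% were higher, and 73.3% with the values as deposited. With array 2 of d3ag6 left out, the Smad7 difference was -1.78 (adjusted p = 0.0537). For Id4 both values were positive, 1.33 for d3ag6 minus d6 female and 1.47 for E12.5 minus E9.5. Their difference of -0.13 had a 95% interval of -0.99 to 0.72, and its sign turned with the values as deposited. Of the markers, 3 of 8 mesenchyme, 3 of 6 blood and macrophage, 1 of 9 gonadal somatic and 1 of 7 endothelial genes were called higher in this test. Among PGC markers, 1 of 9 was called lower. The part of these markers in the result was not tested.

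**Figure D3:**
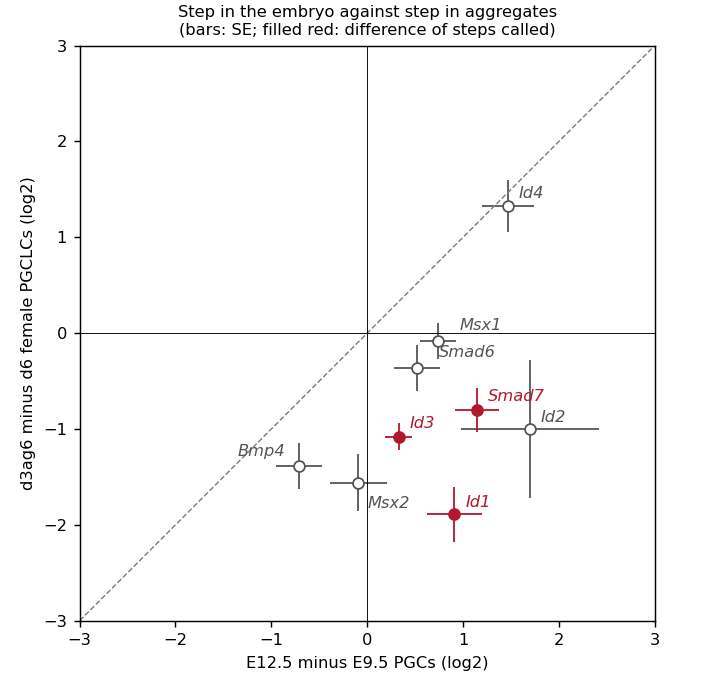
Change from d6 female to d3ag6 cells (y axis, log2) against change from E9.5 to E12.5 PGCs (x axis, log2) for the 9 genes, with bars for 1 SE and a dashed line of equal change; filled red genes had an adjusted p under 0.05 for the difference. Id4 lay near the line at 1.47 and 1.33, and Id1 lay below it at 0.91 and -1.89.

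Of 84 other BMP pathway genes listed, 78 were on the array and 60 were tested. From d3 to d6 female cells 8 of the 60 were called, 3 higher and 5 lower, and in d3ag6 minus d3 11 were called, 4 higher and 7 lower. In d3ag6 minus E12.5 10 were called, 4 higher and 6 lower. Over all genes tested, 4.06%, 10.6% and 9.03% were called in these comparisons. The medians of the 60 genes were -0.0429, -0.00969 and 0.00417.

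Among the ligands, Bmp7 was higher in d3ag6 than in d3 (0.9, adjusted p = 0.00877), d6 female (0.87, adjusted p = 0.0176) and E12.5 cells (0.93, adjusted p = 0.00952), the reverse of the direction of Bmp4 against d3 and d6 female cells. Gdf3, a TGF-beta family ligand of pluripotent cells, was lower in d3ag6 than in E12.5 cells (-0.84, adjusted p = 0.0131). All 11 receptor and co-receptor genes were tested, and 0 to 2 were called in each comparison. The type II receptor gene Bmpr2 was higher in d3ag6 than in E12.5 cells (1.32, adjusted p = 0.0267). The type II receptor gene Acvr2a (1.11, adjusted p = 0.0235) and the co-receptor gene Neo1 (0.77, adjusted p = 0.031) were higher than in d6 female cells.

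Of the 7 transducers tested, Smad1, which carries the signal to the nucleus, was higher in d3ag6 than in E12.5 cells (1.1, adjusted p = 0.025), opposite in direction to the Id and Msx genes there. Zfp423, a zinc-finger partner of BMP Smads, fell from d3 to d6 female cells by 2.78 (adjusted p = 0.0091) and differed by -2.8 in d3ag6 minus d3 (adjusted p = 0.00385).

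The pseudoreceptor Bambi, itself a BMP target, fell from d3 to d6 female cells by 1.12 (adjusted p = 0.0218). In d3ag6 cells it differed by -1.9 from d3 (adjusted p = 0.000998) and by -1.09 from E12.5 cells (adjusted p = 0.0138). Smurf2, a ubiquitin ligase that limits the signal (1.32, adjusted p = 0.0362), Tob1 (1.56, adjusted p = 0.0263) and the ligand trap Fst (2.01, adjusted p = 0.0336) were higher in d3ag6 than in d6 female cells. Fst is also in the gonadal somatic marker list.

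The list of other targets and BMP-responsive transcription factors held members that moved either way. Of the 15 tested, 5 were called from d3 to d6 female cells (2 higher, 3 lower), 6 in d3ag6 minus d3 (2 higher, 4 lower) and 4 in d3ag6 minus E12.5 (all lower), in comparisons where 4.06%, 10.6% and 9.03% of all genes tested were called. Evx1, a posterior homeobox gene, averaged 8.68 in d3, 6.38 in d6 female, 4.16 in d3ag6 and 6.67 in E12.5 cells, and differed by -2.3 (adjusted p = 0.00287) from d3 to d6 female and by -2.51 (adjusted p = 0.000773) in d3ag6 minus E12.5. The caudal homeobox gene Cdx2 differed by -2.94 in d3ag6 minus d3 (adjusted p = 0.000787) and by -2.13 in d3ag6 minus E12.5 (adjusted p = 0.00438), and the T-box gene Tbx3 by -3.18 from d3 to d6 female (adjusted p = 0.00407). Gata3 differed by -1.64 in d3ag6 minus E12.5 (adjusted p = 0.000773). Cdx1, related to Cdx2 and named after its values were seen, was at -0.58, -0.47 and -0.64 in the 3 comparisons, with adjusted p = 0.43, 0.421 and 0.281.

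Hey1, a bHLH repressor, rose from d3 to d6 female cells by 1.14 (adjusted p = 0.00412). Gata2, a zinc-finger factor, was 1.88 higher at E12.5 than at E9.5 (adjusted p = 0.000153), the direction of Id1, Id4 and Msx1 there. Those genes were called lower but Gata2 higher in d6 female minus d3 (0.99, adjusted p = 0.0122) and in d6 female (1.28) and d6 male (1.03) minus E9.5. In d3ag6 minus E12.5, where Id1, Id4 and Msx1 were called lower as well, Gata2 moved the same way (-0.96, adjusted p = 0.00789). It was higher in d3ag6 than in d3 cells (0.62, adjusted p = 0.0401). Of the 3 PGC induction factors, none was called from d3 to d6 female cells, and Tfap2c differed by -0.6 in d3ag6 minus d3 (adjusted p = 0.0282). None of the 3 bHLH partners of Id proteins was called in the comparisons within the EA1013 arrays.

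**Figure D4:**
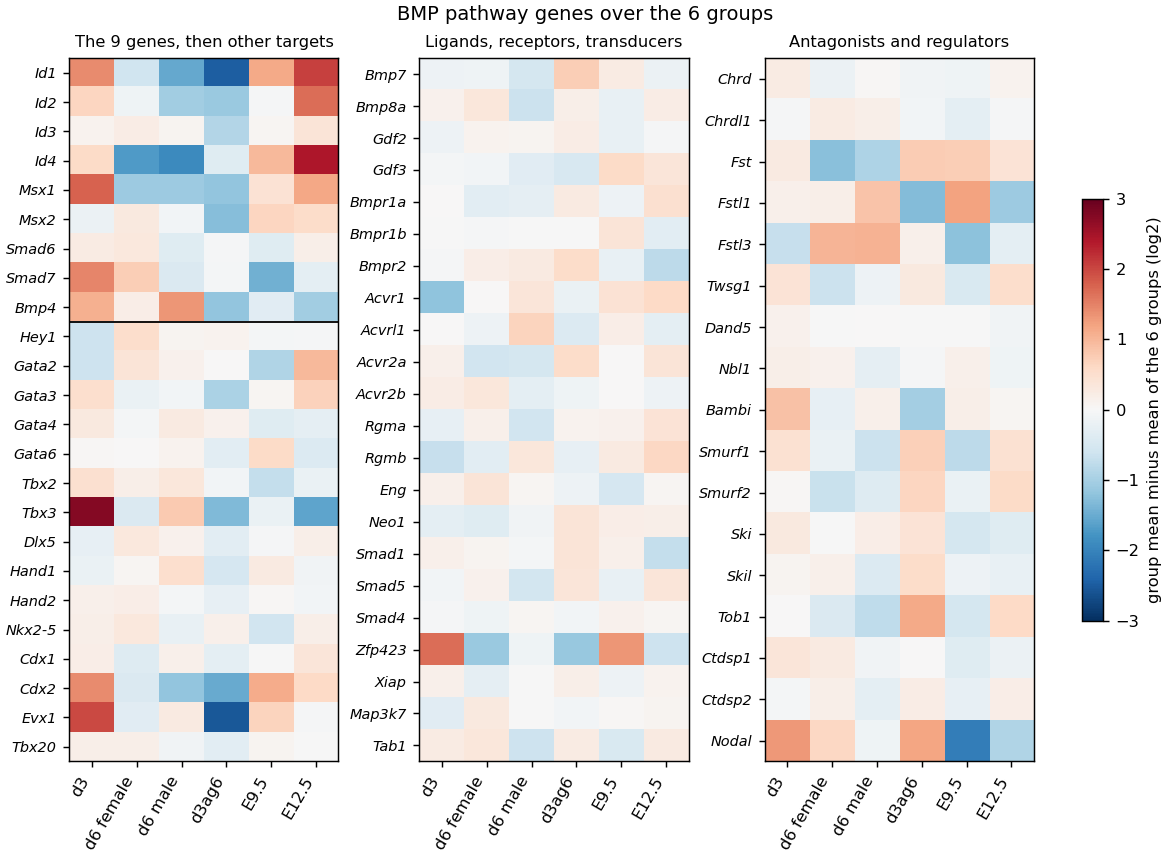
Group mean minus the mean of the 6 groups (colour, log2, from -3 to 3) for the 9 genes and other tested BMP pathway genes (rows) in the 6 groups (columns); colours compare groups within a gene only. Id1, Cdx2 and Evx1 are blue in d3ag6 and red in d3, whereas Smad6, Smad4 and Hand2 are pale throughout.

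Patterns over the 12 arrays were compared by Pearson correlation, as a description of points that share groups, codes and normalization. Among the 9 genes, Id1 and Msx1 were most alike (r = 0.89), followed by Id3 and Msx2 (r = 0.85), with 0.89 and 0.96 over the 8 EA1013 arrays. Over those 8 arrays Id1 was more like Id2 (0.92, and 0.72 over 12) than Msx1. Bmp4 correlated at 0 with Id1 and at -0.53 with Id4 over 12 arrays, and at 0.36 and -0.3 over the 8. Smad7 and Bmp4 reached r = 0.9 over the 8 EA1013 arrays but 0.35 over 12.

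The tested genes most like each member were listed by r over 12 arrays. For Id1 they were Notum, a secreted WNT inhibitor (0.927), Cdx2 (0.922) and the homeobox gene Gbx2 (0.918), and Gbx2 averaged 7.82 in d3, 4.26 in d3ag6 and 7.95 in E12.5 cells. Msx1 was also most like Notum (0.954), then Inava (0.935) and Cpm (0.933). Id3 was most like Etv4, an ETS factor (0.906), which averaged 5.71 in d3ag6 and 8.66 to 9.71 elsewhere, then Fbxo21 (0.871) and Mpst (0.867).

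Id4 was most like Cnr1 (0.943), Fam234b (0.94) and Fut4 (0.938), and Msx2 like Pcolce2 (0.916), Fgd1 (0.913) and Kdelr2 (0.893). Id2 had lower values, with Tnc (0.886), Huwe1 (0.862) and Dnajc2 (0.861). Smad6 was most like Nlrp9b (0.96), Marveld1 (0.958) and Sema3f (0.949), and Smad7 like Slc25a26 (0.949), Pgap6 (0.94) and Stambp (0.936). Bmp4 was most like Parp9 (0.954), Nmi (0.94) and Dysf (0.94).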

How the data were processed

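The deposited table holds log2 signals of 45101 probe sets on 12 arrays. The log base was read from the values, whose array maxima are 13.76 to 13.93, and how the authors summarised and normalized probes is not given in the sources used here. Array medians of 4.73 to 4.87 differed by over 0.1, so the values were quantile normalized between arrays. Probe sets naming 1 gene (34958) were kept, those naming several (932) or none (9211) were not, and 34754 matched the RefSeq gene table by gene ID. Each gene took its probe set with the highest mean, and genes with 2 or more arrays above 4.81, the overall median, were tested. Changes were tested with limma 3.58.1 in R 4.3.3 (lmFit, eBayes, 1 mean per group over all 12 arrays, 6 residual degrees of freedom, two-sided, Benjamini-Hochberg over 13436 genes), which was tested on simulated data. The number of arrays limits the precision. Other settings were the values as deposited, no filter or one at the 75th percentile, the mean of a gene's probe sets or another probe set, a replicate or code block, eBayes with trend and robust, fewer arrays in the fit, and each array left out; the fits on another probe set were added after the data were seen. The 9 genes, the pathway and marker lists and the naming rule (all 9 genes, the 3 genes most alike by r without provisional symbols, and at most 3 pathway genes per list and comparison by adjusted p) were chosen with earlier results of these data known. Cdx1 was named outside this rule, as was Gata2 in d6 female minus d3, d3ag6 minus d3 and d3ag6 minus E12.5. Python 3.11.15 with pandas 2.3.3, numpy 2.4.6 and matplotlib 3.10.9 handled tables and figures.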

Additional observations from a re-analysis of the deposited data

Results flagged for a closer look

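The change from d6 female to d3ag6 cells differed from the change between E9.5 and E12.5 PGCs, by limma's test of the difference itself, for 3 of the 9 genes. The difference was -2.8 for Id1 (adjusted p = 0.00646), -1.41 for Id3 (adjusted p = 0.00502) and -1.94 for Smad7 (adjusted p = 0.0119, and 0.0537 with array 2 of d3ag6 left out). The E9.5 arrays carry other codes than those of the other 3 groups in this test, and code and group cannot be told apart there.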

How the results depend on the processing

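Of 37 calls of the 9 genes in the 8 comparisons and the test of the 2 changes, 24 held with each array left out, and 17 of these held under every other setting too. The 17 were Id1 in d3ag6 minus d3, d6 female and E12.5, in both d6 groups minus E9.5 and in the test of the 2 changes; Id3 in its 4 calls; Msx1 in d6 female minus d3, d3ag6 minus d3 and E12.5, and d6 female minus E9.5; Smad7 in d3ag6 minus d3 and d6 female minus E9.5; and Bmp4 in d3ag6 minus d3. The direction turned in 2 calls, both of Id4 with probe set 1423260_at (-0.0833 for d3ag6 minus d6 female, 0.41 for d6 female minus E9.5).

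Counts of all genes called moved more. Without the filter they were 313 (of 545 in the reported fit) for d6 female minus d3, 419 (of 859) for d3ag6 minus d6 female, 775 (of 1213) for d3ag6 minus E12.5 and 38 (of 197) for d6 female minus d6 male. With the mean of all probe sets they were 338 for d6 female minus d3 and 796 for d3ag6 minus E12.5. With only the arrays compared they were 148 for d6 female minus d3, 765 (of 1430) for d3ag6 minus d3, 569 for d3ag6 minus d6 female, 560 (of 1872) for d6 female minus E9.5, 291 (of 1424) for d6 male minus E9.5 and 2 for d6 female minus d6 male. A fit on the 4 arrays coded EA0831 or EA0842, the same arrays with the code as a block, gave 887 for d6 male minus E9.5.

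With 1 array left out, the lone array of its group assumed to vary like the others, the counts were 112 to 461 for d6 female minus d3, 588 to 955 for d3ag6 minus d3, 193 to 356 for d3ag6 minus d6 female, 363 to 573 for d3ag6 minus E12.5, 743 to 1353 for d6 female minus E9.5, 849 to 1105 for d6 male minus E9.5, 12 to 239 for d6 female minus d6 male and 1387 to 2541 (of 3170) for E12.5 minus E9.5. Of the 9 genes, 2 to 4 (of 5) were then called in d3ag6 minus d6 female, 0 (of 1) in d6 female minus d6 male, 1 to 3 (of 4) in E12.5 minus E9.5, and 2 to 4 (of 3) in the test of the 2 changes. With the mean of all probe sets 3 were called in d3ag6 minus d6 female. With only the arrays compared, 3 were called in d3ag6 minus d6 female, 2 in d6 male minus E9.5, 0 in d6 female minus d6 male and 2 in E12.5 minus E9.5; without the filter 0 were called in d6 female minus d6 male. Calls were also gained: in d3ag6 minus d3, Id2 and Id4 passed with only the arrays compared (adjusted p = 0.0386 and 0.0453). The cause of these moves was not tested.

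With the values as deposited, the share of calls that were higher moved from 63.1% to 73.6% in d3ag6 minus d6 female, from 59.8% to 44.5% in d6 female minus E9.5 and from 66% to 41.6% in d6 female minus d6 male, and the median change of all genes moved by 0.15 in the test of the 2 changes.

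Groups share replicate numbers, and for E9.5 and d6 male the number coincides with the array code. Deviations of same-numbered arrays correlated between -0.25 and 0.55 over 15 pairs of groups (0.55 for E9.5 with d6 male). Such correlations cannot show whether same-numbered arrays share more than a number, such as a preparation. With the replicate number as a block, 547 genes were called for d6 female against d3, 1541, 950 and 1294 for d3ag6 against d3, against d6 female and against E12.5, 2058 and 1496 for d6 female and d6 male against E9.5, 225 for d6 female against d6 male and 3414 for E12.5 against E9.5. Of the 9 genes' calls, that of Id1 in E12.5 minus E9.5 was the one lost (adjusted p = 0.0561). Detection calls were not used here, which limits what can be said of dim probe sets.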
